A study of Homo sapiens with 12 samples.

Results

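The miR-200 family is a set of small RNAs made in epithelial cells from 5 hairpins at 2 places in the human genome. Its members were taken as the entries of the deposited count tables whose names equal hsa-miR-200a-5p, hsa-miR-200a-3p, hsa-miR-200b-5p, hsa-miR-200b-3p, hsa-miR-200c-3p, hsa-miR-141-3p or hsa-miR-429. All 7 were listed among 1346 miRNA entries, and 6 of them were among the 374 entries with enough counts to be tested, the exception being miR-141-3p. The rule goes by name and sets no threshold on a measured value. It does not name miR-200c-5p and miR-141-5p, the listed opposite strands of the chromosome 12 hairpins, whose few counts are given with those hairpins.

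The study measured mature miRNAs in HCT116 cells, a line from a human colorectal carcinoma, in which DICER had been rescued with a mutant or a wild-type protein. DICER is the RNase III enzyme that cuts the loop off a precursor hairpin and leaves a duplex of a 5p and a 3p strand. Small RNA from 12 libraries was sequenced with AQ-seq, a protocol built to reduce ligation bias, and each of the 6 rescues had 2 libraries. The rescues were R821E, where the name stands for an arginine turned into glutamate, R821A, with alanine in the same place, E5 and A5, which the sources used here do not explain, ΔPAZ helix, whose name stands for the loss of a helix in the PAZ domain, and wild type (WT). All the groups share the same cell line and the rescue itself. The sources used here do not say whether rescued cells still made DICER of their own, or whether a rescue is 1 clone.

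In epithelia the miR-200 family represses the transcription factors ZEB1 and ZEB2, which silence E-cadherin, and ZEB1 and ZEB2 repress the family's genes in return. Loss of the family accompanies the epithelial-mesenchymal transition, the change of sheet-forming cells into migrating ones. A miRNA finds its targets mainly through its seed, so members that share a seed share most of their predicted targets, and the 2 strands of a hairpin have different seeds.

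The mature sequences show which members share a seed and how alike the members are. They are RefSeq entries on GRCh38.p14, each written 5′ to 3′ with the seed (bases 2 to 8) in capitals, and RefSeq matched 7 of 7 members. The submitters' processing notes name the builds hg38 and mm10 without saying what each was used for.
miR-200a-5p: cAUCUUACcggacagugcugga
miR-200b-5p: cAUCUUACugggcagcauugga
miR-200a-3p: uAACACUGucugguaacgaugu
miR-141-3p: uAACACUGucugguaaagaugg
miR-200b-3p: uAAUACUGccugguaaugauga
miR-200c-3p: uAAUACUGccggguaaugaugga
miR-429: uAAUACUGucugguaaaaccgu

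The members fell into 3 seed groups. AUCUUAC was shared by miR-200a-5p and miR-200b-5p, AACACUG by miR-200a-3p and miR-141-3p, and AAUACUG by miR-200b-3p, miR-200c-3p and miR-429. The seeds of the abundant 3p strands, miR-200a-3p and miR-200b-3p, are set apart by the substitution C4U alone (positions counted from 1 at the 5′ end, miR-200a-3p first), beside U9C, C17U and U22A outside the seed. Across the 2 loci, miR-141-3p differs from miR-200a-3p by C17A and U22G, and miR-200c-3p differs from miR-200b-3p by U11G and A22G over the 22 positions compared. The sources used here do not say how reads matching several miRNAs were counted, so the counts of these near-identical pairs are uncertain singly.

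On chromosome 1, MIR200B, MIR200A and MIR429 lie within 1984 bases on the plus strand (chr1:1167104-1169087), all inside the long non-coding host gene MIR200BHG. On chromosome 12, MIR200C and MIR141 lie within 493 bases on the plus strand (chr12:6963699-6964191), inside the host gene MIR200CHG. Most of the family's counts were assigned to the hairpins of chromosome 1, of which MIR200B and MIR429 are shown. The source of hairpin sequences used here held none for MIR200A. The mature strands are in capitals, and the table of mature miRNAs holds 1 strand for MIR429.
MIR200B: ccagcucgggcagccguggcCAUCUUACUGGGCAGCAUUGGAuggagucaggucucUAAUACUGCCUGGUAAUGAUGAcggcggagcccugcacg
MIR429: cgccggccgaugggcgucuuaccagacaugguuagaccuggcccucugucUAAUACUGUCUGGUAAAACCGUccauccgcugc

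MIR200B spans chr1:1167104-1167198 and MIR429 spans chr1:1169005-1169087. The miR-200b strands are separated by 14 bases of terminal loop and the miR-200a strands by 16, while those of miR-200c are separated by 17. The miR-429 strand is the 3p strand of its hairpin by its place in this sequence, although its name carries no arm.

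Libraries held 144067 to 255296 miRNA counts, 9529 to 14969 spike-in counts and 617 to 804 detected entries, and the family took 183 to 741 counts in each. Levels are CPM, counts scaled to library size with TMM factors, and 3 counts, the limit below which a count of 0 cannot be told from a low level, were 10.4 to 25.9 CPM. The TMM factors were 0.714 and 0.804 in R821E and 0.990 to 1.15 in the other libraries. miRNA counts per spike-in count averaged 14.3 ± 1.38 in R821E, 19.6 ± 2.74 in R821A, 17.1 ± 0.856 in E5, 18.5 ± 0.205 in A5, 19.2 ± 1.92 in ΔPAZ helix and 24.2 ± 2.49 in WT (SD, n = 2 each), so a second scale used spike-in counts as library size. The chi-square of replicate counts per degree of freedom was 3.98 to 29.4, largest in WT, and no replicate repeated the counts of the other. The labels do not tell whether the replicates of a rescue were grown apart. The p-values therefore reflect the spread of these libraries alone, possibly a technical one, and intervals on counts cover counting error only.

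In HCT116 cells the family's counts were assigned mainly to the chromosome 1 members, and the chromosome 12 members were near the limit of counting. How reads were divided between the near-identical 3p strands of the chromosome 1 and chromosome 12 loci is not known. Averaged over the 12 libraries, miR-200b-3p had 1068 CPM and ranked 80 among the 1346 entries, and miR-200a-3p had 636 CPM and ranked 108. Then came miR-429 with 217 CPM, miR-200b-5p with 175 CPM and miR-200a-5p with 119 CPM, all strands of the same cluster. miR-200c-3p had 34.9 CPM and miR-141-3p had 27.8 CPM, at ranks 354 and 377. Of all family counts 46.8% were miR-200b-3p, 28.7% miR-200a-3p, 9.80% miR-429, 7.03% miR-200b-5p, 4.85% miR-200a-5p, 1.56% miR-200c-3p and 1.23% miR-141-3p. The members are 22 or 23 bases long, so their levels were set side by side without a correction for length. Among neighbours in this order, only miR-200c-3p and miR-141-3p overlapped in the WT libraries.

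**Figure D1:**
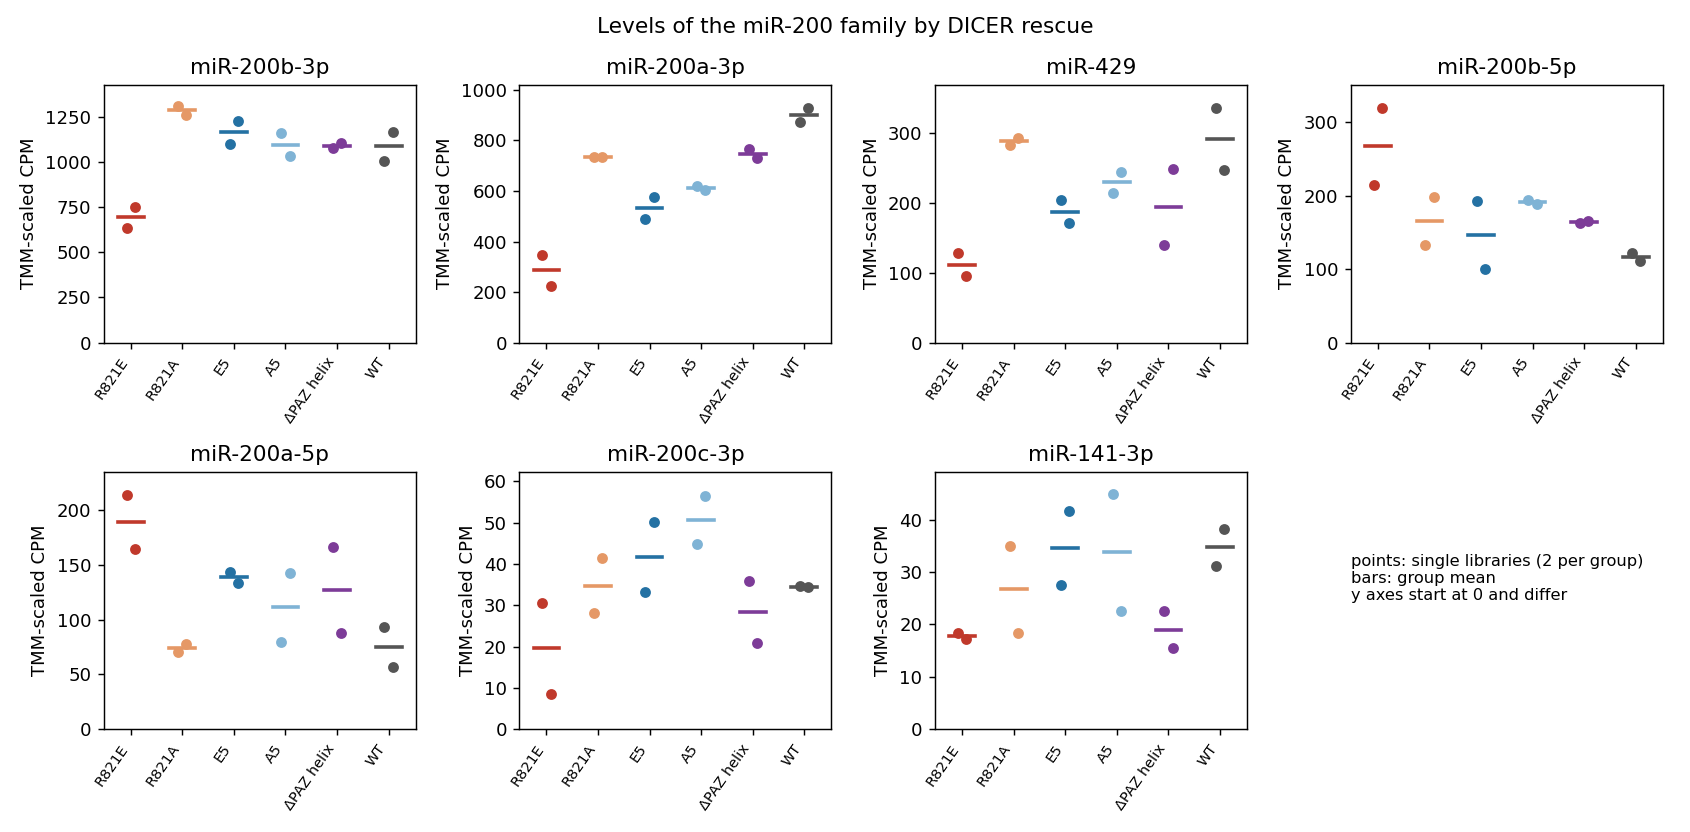
TMM-scaled CPM of the 7 members (y axes, linear, each from 0) in the 6 DICER rescues (x axes). Points are single libraries and bars are means of 2; miR-200b-3p, miR-200a-3p and miR-429 are lowest in R821E, and miR-200a-5p and miR-200b-5p have their highest mean there.

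The family as a whole took a smaller share of the miRNA counts in R821E, and so did 3p entries over all miRNAs. The family's share was 0.120% ± 0.00962 in R821E, 0.283% ± 0.00983 in R821A, 0.232% ± 0.0152 in E5, 0.243% ± 7.07e-05 in A5, 0.242% ± 0.0108 in ΔPAZ helix and 0.280% ± 0.00969 in WT (SD, n = 2 each). All 3p entries took 11.5% ± 0.594 in R821E and 26.2% ± 1.80 in WT, and 92.4% ± 1.49 of the family's counts in WT were 3p strands. The family's smaller share is therefore not shown to be particular to it. Scaled to spike-in RNA (family counts per 1000 spike-in counts), the level was 17.2 ± 0.276 in R821E, 55.3 ± 5.83 in R821A, 39.6 ± 0.622 in E5, 45.0 ± 0.495 in A5, 46.3 ± 2.59 in ΔPAZ helix and 67.7 ± 4.64 in WT (SD, n = 2 each). On this scale no mutant library reached either WT library. The same held for all miRNA counts together, so this order is not particular to the family. Per spike-in count they were 22.42 and 25.94 in WT libraries and at most 21.49 in a mutant library (R821A replicate 2). In bulk RNA, fewer cells making the family and less of it per cell cannot be told apart.

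The 3p strands carry the seeds that pair with ZEB1 and ZEB2 transcripts, and 3 of them fell in R821E against WT, a comparison that asks what glutamate in place of this arginine does to the miRNAs of the cell. miR-200a-3p, the most abundant member with the seed AACACUG, had 348 and 225 CPM in R821E libraries, against 874 and 927 CPM in WT libraries. It had 736 and 735 CPM in R821A, 491 and 576 in E5, 618 and 605.5 in A5, and 765 and 732 in ΔPAZ helix. Every mutant library was below both WT libraries, and the R821E libraries were below all others. The log2 fold change of R821E over WT was -1.63 ± 0.224 (SE, edgeR quasi-likelihood test with Benjamini-Hochberg adjustment, adjusted p = 0.000112), which placed miR-200a-3p at rank 15 from the lowest of 148 tested 3p entries.

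miR-200b-3p, the family's most abundant strand, had 635 and 751.5 CPM in R821E libraries, against 1006 and 1164 CPM in WT libraries. It had 1311 and 1258 CPM in R821A, 1098 and 1227 in E5, 1157 and 1030 in A5, and 1075 and 1105 in ΔPAZ helix. Only the R821E libraries stood apart, below the other 10, while the libraries of the other rescues overlapped WT or lay above it. The log2 fold change of R821E over WT was -0.65 ± 0.176 (SE, edgeR, adjusted p = 0.00808), near the median of -0.58 over all 148 tested 3p entries.

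miR-429 shares its seed with miR-200b-3p and its cluster with both. It had 128 and 95.02 CPM in R821E libraries, against 336 and 248 CPM in WT libraries. In the other rescues it had 284 and 294 CPM in R821A, 204 and 171 in E5, 214.5 and 244.5 in A5, and 139.5 and 249 in ΔPAZ helix. The R821E libraries were again below the other 10, while both R821A libraries and 1 ΔPAZ helix library were within the WT range. The log2 fold change of R821E over WT was -1.36 ± 0.333 (SE, edgeR, adjusted p = 0.00459). In both WT libraries miR-429 was above the 5p strands, and in both R821E libraries it was below them.

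The 5p strands, the minor products of the MIR200A and MIR200B hairpins, went the other way on the TMM scale. miR-200a-5p had 214 and 164 CPM in R821E libraries, against 93.6 and 57.2 CPM in WT libraries, from 35 and 19 against 27 and 15 counts. In the other rescues it had 70.1 and 78.1 CPM in R821A, 143.5 and 133.5 in E5, 79.8 and 143 in A5, and 166.5 and 88.2 in ΔPAZ helix. The R821E libraries did not overlap WT, though 1 ΔPAZ helix library lay between the R821E libraries. The log2 fold change of R821E over WT was 1.33 ± 0.400 on the TMM scale (SE, edgeR, adjusted p = 0.0146), rank 9 from the highest of 174 tested 5p entries, and 0.04 ± 0.421 on the spike-in scale (adjusted p = 0.950).

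miR-200b-5p had 214 and 320 CPM in R821E libraries, against 121 and 111 CPM in WT libraries, from 35 and 37 against 35 and 29 counts. Elsewhere it had 133 and 197.5 CPM in R821A, 193 and 100.2 in E5, 194.5 and 188 in A5, and 162 and 166 in ΔPAZ helix. Both R821E libraries were above every other library. The log2 fold change of R821E over WT was 1.18 ± 0.342 on the TMM scale (SE, edgeR, adjusted p = 0.0121) and -0.11 ± 0.363 on the spike-in scale (adjusted p = 0.815).

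Counted together, 5 of the 6 tested members passed the test in R821E against WT on the TMM scale, 2 higher and 3 lower, beside 47.9% of all tested entries (23.8% higher and 24.1% lower). The direction of each called member was the more common direction of its arm. How many of all tested entries had both R821E libraries below or above all other libraries was not counted, so that order is not shown to be particular to the members. Over all tested entries, 5p entries had a median log2 fold change of 0.17, with 50 called higher and 28 lower of 174, and 3p entries had a median of -0.58, with 18 called higher and 56 lower of 148. Scaled by spike-in counts, 4 members fell and none rose, beside 60.4% of all tested entries called lower and 60.7% called in either direction. miR-200a-3p had a log2 fold change of -2.92 ± 0.235 there (SE, edgeR, adjusted p = 2.97e-07), miR-429 of -2.65 ± 0.325 (adjusted p = 1.02e-05), miR-200b-3p of -1.95 ± 0.185 (adjusted p = 1.23e-06) and miR-200c-3p of -1.95 ± 0.621 (adjusted p = 0.0148). The median of all tested entries was -0.10 on the TMM scale, -0.65 with total counts as library size and -1.38 with spike-in counts. The size and the call of a 5p strand's change therefore depend on the scale, while the distance between the strands does not. Of the 5p strands only miR-200b-5p also changed sign, to -0.11 on the spike-in scale.

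Single libraries decided some of these calls. Without WT replicate 2, neither 5p strand passed the edgeR test on the TMM scale (adjusted p = 0.0915 for miR-200a-5p and 0.0538 for miR-200b-5p). Without R821E replicate 1, miR-200a-5p (adjusted p = 0.125) and miR-200b-3p (adjusted p = 0.0824) did not pass, and without R821E replicate 2, miR-200b-5p did not (adjusted p = 0.115). On the spike-in scale miR-200c-3p did not pass without R821E replicate 2, which held 1 count of it (edgeR, adjusted p = 0.0924). With total counts as library size, miR-200a-5p was at 0.76 (adjusted p = 0.128) and miR-200b-5p at 0.64 (adjusted p = 0.145) in edgeR. A fit of the 4 libraries alone did not call miR-200b-3p on the TMM scale (edgeR, adjusted p = 0.119). miR-200a-3p and miR-429 passed on both scales whichever of the 4 libraries was left out.

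**Figure D2:**
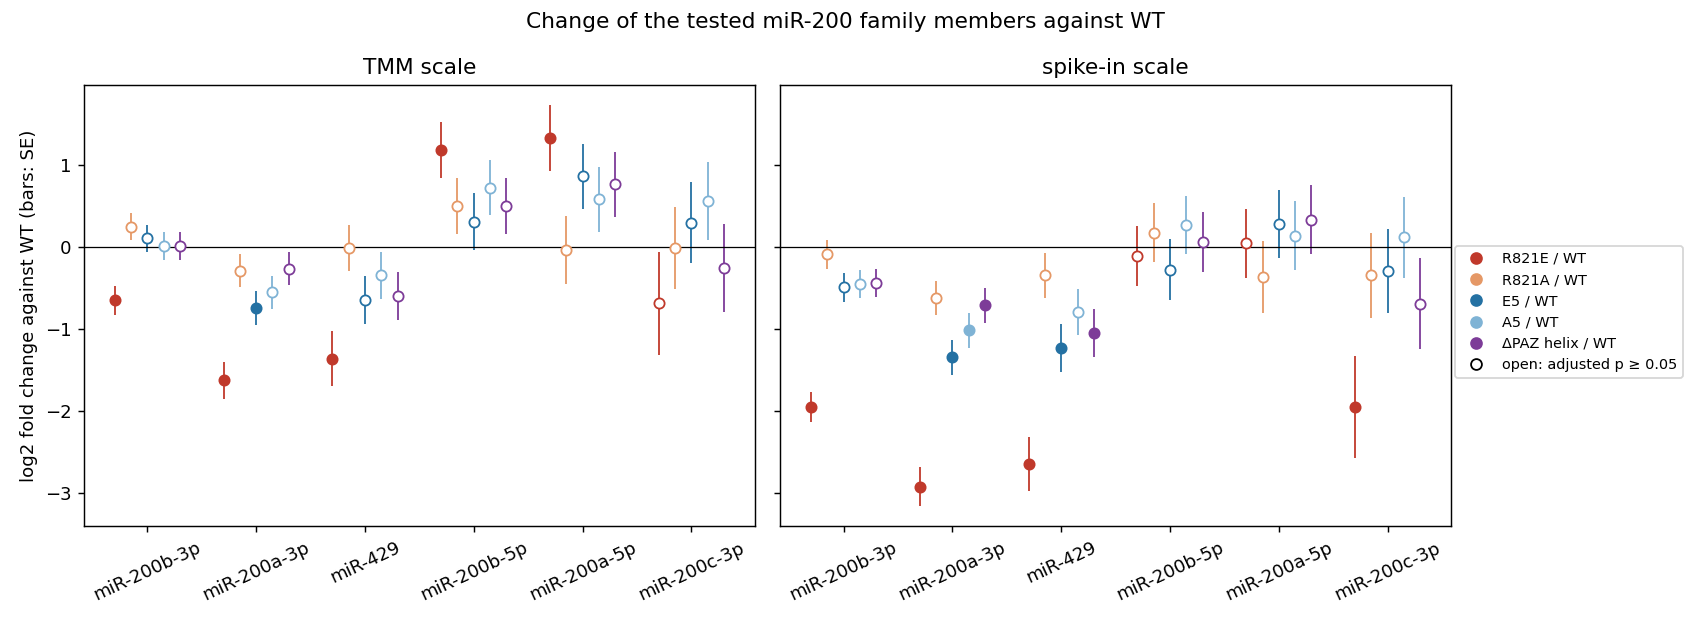
Log2 fold change against WT (y axis) of the 6 tested members in the 5 mutant rescues, scaled by TMM (left) or by spike-in counts (right). Bars are SE and filled points passed an adjusted p of 0.05; in R821E the 5p strands are at 1.33 and 1.18 (left) and at 0.04 and -0.11 (right), while miR-200a-3p and miR-429 are below 0 on both.

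**Figure D3:**
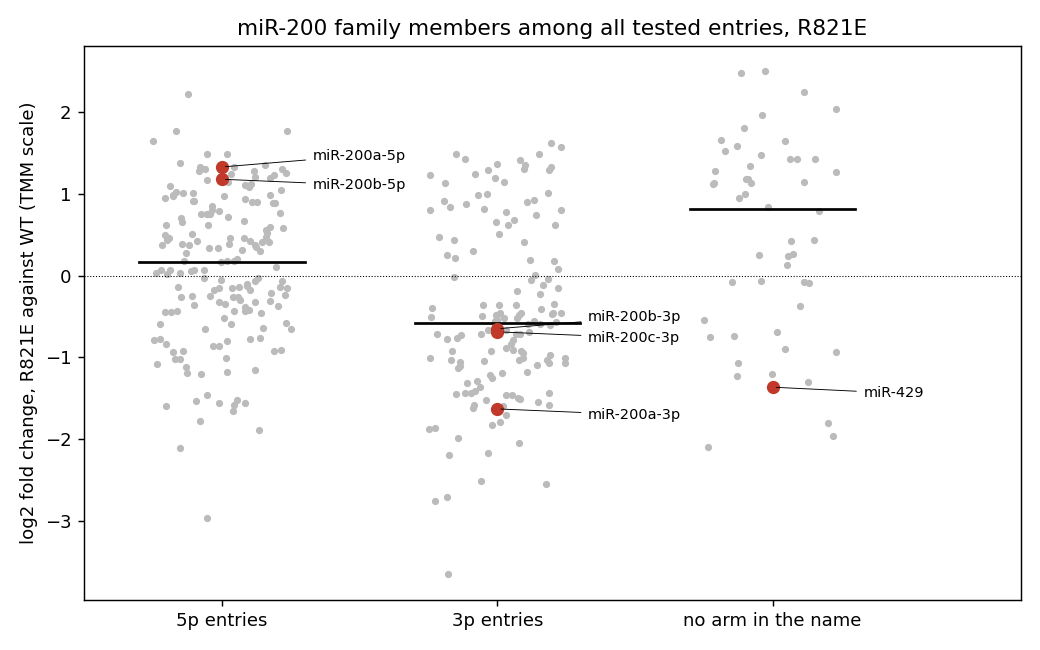
Log2 fold change of R821E over WT on the TMM scale (y axis) for all 374 tested entries, by arm (x axis). Grey points are single entries, red points the 6 tested family members and bars the medians, 0.17 for 5p and -0.58 for 3p; miR-200b-3p lies near the 3p median and miR-200a-3p well below it.

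The ratio of the strands of 1 hairpin needs no scaling between libraries, and in R821E it moved toward 5p for both miR-200a and miR-200b. For miR-200a the 5p strand made up 38.0% (exact 95% interval 28.1 to 48.8%) and 42.2% (27.7 to 57.9%) of both strands in R821E libraries, against 9.68% (6.48 to 13.8%) and 5.81% (3.29 to 9.41%) in WT libraries. It made up 8.70 and 9.61% in R821A, 22.6 and 18.8% in E5, 11.4 and 19.1% in A5, and 17.9 and 10.8% in ΔPAZ helix. The R821E libraries were above the other 10, and the R821A libraries were within the WT range.

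For miR-200b the 5p strand made up 25.2% (18.2 to 33.2%) and 29.8% (22.0 to 38.7%) in R821E libraries, against 10.8% (7.62 to 14.7%) and 8.68% (5.89 to 12.2%) in WT libraries. It made up 9.22 and 13.6% in R821A, 14.96 and 7.55% in E5, 14.4 and 15.4% in A5, and 13.1 and 13.1% in ΔPAZ helix. Here too the R821E libraries were above all others, and the remaining libraries lay between 7.55 and 15.4%.

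The log2 ratio of 5p to 3p rose in R821E over WT by 3.02 ± 0.402 for miR-200a (SE, limma across hairpins, adjusted p = 0.000194) and by 1.81 ± 0.385 for miR-200b (adjusted p = 0.00395). They ranked 2 and 11 from the highest among the 69 hairpins tested, and the median shift of those hairpins was 0.40. Called shifts ran toward 5p for 43.5% of the hairpins and toward 3p for 13%, together 56.5%. The share of hairpins with both R821E libraries above all other libraries was not counted. Of all family counts, 71.2% ± 2.60 were 3p strands in R821E, against 92.4% ± 1.49 in WT (SD, n = 2 each), and the other rescues averaged 86.95 to 90.8%. Over all miRNAs, 3p entries took 11.5% ± 0.594 of the counts in R821E and 26.2% ± 1.80 in WT (SD, n = 2 each).

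**Figure D4:**
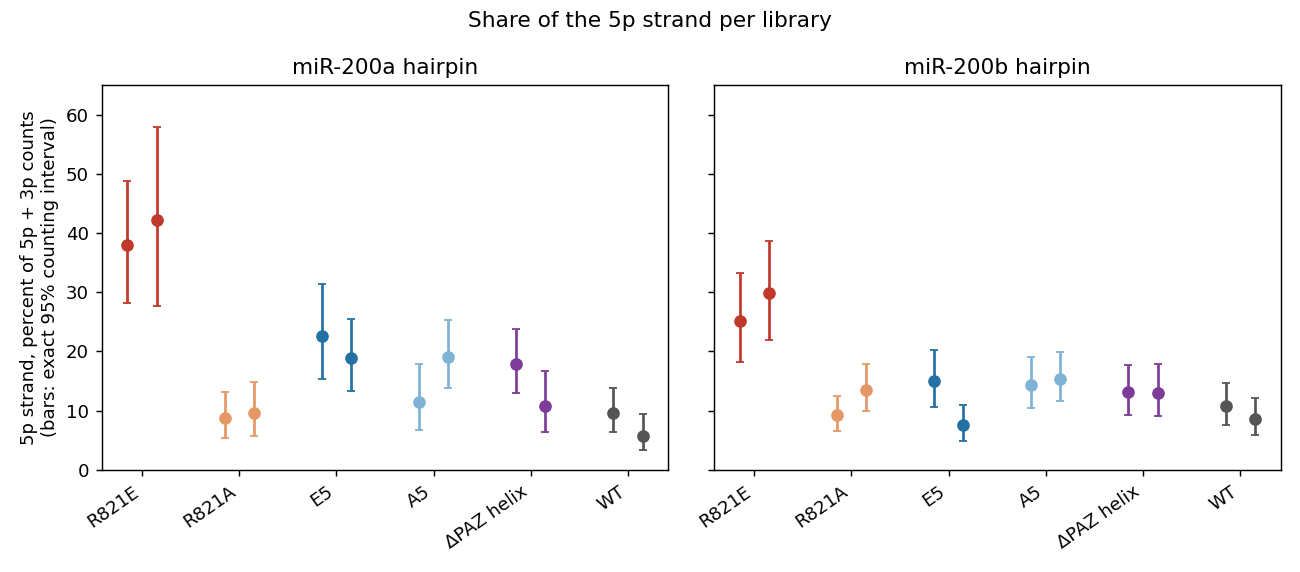
Share of the 5p strand in the counts of both strands of the miR-200a (left) and miR-200b (right) hairpins (y axis, percent) in each library, by rescue (x axis). Bars are exact 95% counting intervals; R821E libraries are at 38.0 and 42.2% for miR-200a and at 25.2 and 29.8% for miR-200b, above all other libraries.

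R821E was also set against R821A, the other exchange at the same residue, and 4 members differed. This comparison and the one with WT share the R821E libraries, so they are not independent. In R821E against R821A, miR-200a-3p (log2 fold change -1.34 ± 0.225, SE, edgeR, adjusted p = 0.000761), miR-429 (-1.34 ± 0.334, adjusted p = 0.0076) and miR-200b-3p (-0.89 ± 0.176, adjusted p = 0.0018) fell. miR-200a-5p rose (1.37 ± 0.407, adjusted p = 0.0175), whereas miR-200b-5p was at 0.68 ± 0.334 (adjusted p = 0.115). Thus 4 of 6 tested members were called, beside 41.4% of all tested entries. Against the spike-in RNAs the 3 abundant 3p strands fell by 2.30, 2.30 and 1.86 on the log2 scale for miR-200a-3p, miR-429 and miR-200b-3p, and miR-200a-5p was at 0.41 (edgeR, adjusted p = 0.493), beside 48.9% of all tested entries called lower and 49.2% in either direction. On that scale miR-200c-3p was at -1.60 ± 0.635 (edgeR, adjusted p = 0.052), at -2.81 without R821E replicate 1 (0.0375) and at -1.97 without R821A replicate 1 (0.0449), so its call depended on single libraries. The TMM call on miR-200a-5p was lost without R821E replicate 1 (edgeR, adjusted p = 0.126) without either R821A library (0.103 and 0.0555) and with total counts as library size (log2 fold change 0.83, adjusted p = 0.116), and that on miR-429 without R821E replicate 2 (0.0597). The 5p to 3p ratio rose over R821A by 2.71 ± 0.402 on the log2 scale for miR-200a (SE, limma, adjusted p = 0.000679) and by 1.58 ± 0.385 for miR-200b (adjusted p = 0.00762), beside 34.8% of hairpins shifted toward 5p. The miR-200b shift did not pass without R821A replicate 1 (limma, adjusted p = 0.0782).

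In R821A, where alanine replaces the same arginine, no family member passed the test against WT. The fold changes on the log2 scale were -0.29 ± 0.201 for miR-200a-3p, 0.24 ± 0.167 for miR-200b-3p, -0.02 ± 0.279 for miR-429, -0.04 ± 0.418 for miR-200a-5p, 0.49 ± 0.337 for miR-200b-5p and -0.02 ± 0.498 for miR-200c-3p (SE, edgeR, TMM scale). None of the 6 had an unadjusted p under 0.05 in edgeR on the TMM scale, beside 39 of the 374 tested entries. DESeq2 called 0 members, beside 15 entries. By adjusted p, edgeR called 0 members on the TMM scale, beside 3.21% of all tested entries (2.94% lower and 0.267% higher). With spike-in scaling 1 member, miR-200a-3p, had an unadjusted p under 0.05 (log2 fold change -0.63 ± 0.209, edgeR, adjusted p = 0.114), beside 73 of the 374 tested entries. By adjusted p, 0 members were called on that scale, beside 4.28% of all tested entries. Neither hairpin shifted its 5p to 3p ratio (0.31 ± 0.402 for miR-200a and 0.23 ± 0.385 for miR-200b on the log2 scale, SE, limma, adjusted p = 0.816 and 0.917), and 0 of 69 hairpins were called, with 8 at an unadjusted p under 0.05.

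In E5, miR-200a-3p was the member that fell against WT on the TMM scale, with a log2 fold change of -0.75 ± 0.206 (SE, edgeR, adjusted p = 0.0351). That is 1 of 6 tested members, beside 9.09% of all tested entries (2.41% higher and 6.68% lower), and the call was lost without any single library of the 4 (adjusted p from 0.0612 to 0.178). It was also lost with DESeq2 (adjusted p = 0.0651), without the filter on low counts (0.104) and in a fit of the 4 libraries alone (0.315). miR-429 was at -0.65 ± 0.294 (adjusted p = 0.208) and miR-200b-3p at 0.10 ± 0.168 (adjusted p = 0.761). The 5p strands were at 0.86 ± 0.396 for miR-200a-5p (adjusted p = 0.208) and 0.31 ± 0.349 for miR-200b-5p (adjusted p = 0.657). On the spike-in scale miR-200a-3p fell by 1.35 (edgeR, adjusted p = 0.00065) and miR-429 by 1.23 (adjusted p = 0.00769) on the log2 scale, beside 27.3% of all tested entries called. The call on miR-429 was lost without E5 replicate 2 (edgeR, adjusted p = 0.0612), and miR-200b-3p, at -0.50 (adjusted p = 0.0505), passed without WT replicate 1 (adjusted p = 0.0271). The miR-200a hairpin shifted toward 5p by 1.66 ± 0.402 on the log2 scale (SE, limma, adjusted p = 0.0406), 1 of 3 hairpins called and beside 4.35% of those tested. This shift was not called without WT replicate 2 (limma, adjusted p = 0.15) or without either E5 library (0.2 and 0.109), nor with a minimum mean of 5 counts per arm (0.0899) or the 4 libraries alone (0.343). miR-200b was at 0.16 ± 0.385 (limma, adjusted p = 0.900).

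In A5 and ΔPAZ helix no member passed on the TMM scale, beside 0.267% of all tested entries in each. DESeq2 called 0 members in either, beside 2 entries in A5 and 3 in ΔPAZ helix. At an unadjusted edgeR p under 0.05 there was 1 member in A5, miR-200a-3p, beside 52 of the 374 tested entries. In ΔPAZ helix there were 0 members at that limit, beside 44 of the tested entries. miR-200a-3p was at -0.56 ± 0.203 in A5 over WT (adjusted p = 0.265) and at -0.27 ± 0.202 in ΔPAZ helix over WT (adjusted p = 0.591), on the log2 scale (SE, edgeR). On the spike-in scale it fell in A5 by 1.02 (edgeR, adjusted p = 0.00923), 1 of 6 members beside 14.7% of all tested entries. In ΔPAZ helix miR-200a-3p fell by 0.71 (edgeR, adjusted p = 0.0477) and miR-429 by 1.05 (adjusted p = 0.0397) on the same scale, 2 of 6 members beside 13.1% of all tested entries.

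The spike-in calls in these rescues rested on single libraries. That in A5 was lost without A5 replicate 1 (edgeR, adjusted p = 0.13) or replicate 2 (0.0696). In ΔPAZ helix miR-200a-3p was lost without replicate 1 (0.137) or replicate 2 (0.268) of ΔPAZ helix or replicate 2 of WT (0.122), and miR-429 without replicate 1 (0.211) or replicate 2 (0.0903) of ΔPAZ helix or replicate 1 of WT (0.113). The miR-200a shift toward 5p was 1.09 ± 0.402 in A5 (SE, limma, adjusted p = 0.282) and 0.99 ± 0.402 in ΔPAZ helix (adjusted p = 0.323), and 0 of 69 hairpins were called in either, with 6 and 9 at an unadjusted p under 0.05.

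E5 and A5, set against each other directly, gave no call for any member. The log2 fold changes of E5 over A5 ran from -0.41 ± 0.338 for miR-200b-5p to 0.28 ± 0.385 for miR-200a-5p, with miR-200a-3p at -0.19 ± 0.209 (SE, edgeR, TMM scale, adjusted p = 0.686, 0.821 and 0.795). Here edgeR called 0 of the 374 tested entries on either scale and DESeq2 called 0, while 36 entries (TMM scale) and 37 entries (spike-in scale), none of them members, had an unadjusted edgeR p under 0.05. No hairpin of the 69 was called by limma or had an unadjusted p under 0.05.

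miR-200a-3p was the only tested member with all 10 mutant libraries below both WT libraries on the TMM scale, beside 6.95% of all tested entries. On the spike-in scale miR-200a-3p and miR-429 had this order, beside 28.1% of all tested entries. No member had all 10 above both, beside 6.95% of entries (TMM scale) and 0.535% (spike-in scale). Within 1 cluster the balance of the abundant strands differed too: miR-200a-3p counts per miR-200b-3p count were 0.548 and 0.299 in R821E, 0.5615 and 0.584 in R821A, 0.447 and 0.469 in E5, 0.5345 and 0.588 in A5, and 0.711 and 0.662 in ΔPAZ helix, against 0.869 and 0.797 in WT. No mutant library reached either WT library, and the ΔPAZ helix libraries came nearest. This ratio was computed after the order of miR-200a-3p was known, and the difference was not tested. miR-429 counts per miR-200b-3p count were 0.202 and 0.126 in R821E, 0.217 and 0.234 in R821A, 0.186 and 0.1395 in E5, 0.185 and 0.237 in A5, and 0.130 and 0.225 in ΔPAZ helix, against 0.3345 and 0.213 in WT. The R821E and E5 libraries lay below both WT libraries, and the other mutants each had at least 1 library within the WT range. This difference was not tested either.

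The chromosome 12 members were too few to compare with any precision. miR-141-3p had 3 and 2 counts in R821E libraries, against 9 and 10 counts in WT libraries, a ratio of levels of 0.518 (exact 95% interval from counting 0.151 to 1.44). miR-200c-3p had 5 and 1 counts in R821E libraries, against 10 and 9 counts in WT libraries, a ratio of 0.622 (0.203 to 1.62), and its fitted log2 fold change was -0.69 ± 0.627 (SE, edgeR, TMM scale, adjusted p = 0.385). In the other mutants the ratio of levels to WT was 0.559 to 1.03 for miR-141-3p and 0.838 to 1.49 for miR-200c-3p, and every one of these intervals included 1. The opposite strands were rarer still: miR-200c-5p had 4 counts and miR-141-5p had 13 counts over all 12 libraries, so strand ratios of these hairpins were not detectable at this depth.

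Members were also set side by side by their 5 fold changes against WT on the TMM scale, which share the WT libraries. The root mean square difference was 0.25 between miR-200a-3p and miR-429, 0.309 between miR-200b-3p and miR-200c-3p, and 0.375 between miR-200a-5p and miR-200b-5p, all in log2 units. It was 1.66 between the strands of miR-200a and 0.913 between those of miR-200b. Members thus lay closer to another member of the same arm than to the opposite strand of their own hairpin.

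Outside the family, 245 tested entries with at least 100 CPM were compared with the most abundant member of each seed group over the same 5 fold changes. Nearest to miR-200a-3p were miR-128-3p (root mean square difference 0.11 in log2 units), miR-483-3p (0.12) and miR-99b-5p (0.138), which were at -1.51, -1.55 and -1.55 in R821E over WT. miR-33b-3p (0.0533), miR-671-5p (0.0694) and miR-140-3p (0.121) were nearest to miR-200b-3p, and miR-532-5p (0.0721), miR-663a (0.105) and miR-29c-5p (0.134) to miR-200b-5p.

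Other miRNAs known from epithelia did not move as a block on the TMM scale. The list of epithelial miRNAs outside the family held 10 names, miR-375 also as miR-375-3p, of which 9 had an entry and 7 were tested. In R821E against WT 1 rose and 2 fell on the TMM scale, with a median log2 fold change of -0.32, beside -0.10 over all tested entries, of which 47.9% were called. miR-183-5p, the most abundant with 8024 CPM on average, rose by 0.98 ± 0.127 on the log2 scale (SE, edgeR, adjusted p = 6.87e-05), while its cluster partners miR-182-5p (0.02 ± 0.159, adjusted p = 0.926) and miR-96-5p (-0.32 ± 0.192, adjusted p = 0.186) did not pass. miR-203a-3p, a miRNA of stratified epithelia, fell by 0.59 (edgeR, adjusted p = 0.0245). The other miRNA that fell was the intestinal miR-194-5p, by 1.52 (edgeR, adjusted p = 0.00629), while the intestinal miR-192-5p was at 0.46 ± 0.366 (adjusted p = 0.322), and both were named after their values were seen. miR-375, at 36.4 CPM on average and also named after its values were seen, was at -1.79 ± 0.820 (SE, edgeR, adjusted p = 0.0839). Spike-in scaling gave another count: 5 of the 7 fell and 0 rose, beside 60.4% of all tested entries called lower. There miR-375 was at -3.04 ± 0.764 (SE, edgeR, adjusted p = 0.00337), and on both scales it was the lowest of the 7.

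Of 13 miRNAs linked to the epithelial-mesenchymal transition, 11 were tested, and in R821E against WT 3 rose and 4 fell on the TMM scale, with a median log2 fold change of -0.26, beside 47.9% of all tested entries called and their median of -0.10. miR-21-5p, which had 464400 CPM on average, rose by 1.01 ± 0.160 on the log2 scale (SE, edgeR, adjusted p = 0.000262). miR-222-3p fell by 0.92 ± 0.137 (adjusted p = 0.00017) and miR-221-3p by 1.60 ± 0.145 (adjusted p = 4.43e-06), while miR-31-5p was at -0.34 ± 0.222 (adjusted p = 0.219) in edgeR. The remaining members were named after their values were seen: miR-10b-5p and miR-9-5p rose by 1.20 and 1.30, miR-101-3p and miR-30c-5p fell by 1.21 and 0.43, and miR-34a-5p at -0.26, miR-30a-5p at -0.11 and miR-34c-5p at 0.37 did not pass. By spike-in counts none of the 11 rose and 7 fell, beside 60.4% of all tested entries called lower. The list holds miRNAs with opposite reported roles, so its count gives no direction.

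Markers of other cell types were checked because a line might lack them, and some were counted in every library while others had few counts. Counted in every library were, among others, miR-126-5p (518 CPM on average), miR-145-5p (449), miR-142-3p (276) and miR-126-3p (253). These entries are therefore not absent from these libraries, and whether the reads came from the HCT116 cells was not tested. Of 3 muscle miRNAs 1 was listed, with 1 count in all libraries, the neuronal miR-124-3p had 1 count (miR-9-5p, the other neuronal entry, is given above), and the hepatocyte miR-122-5p had at most 12.2 CPM. The 6 mesenchymal miRNAs summed to 287 to 345.5 CPM in R821E and 507 to 558 CPM in WT, mostly miR-145-5p, and the 2 endothelial ones to 432 to 452 CPM in R821E and 733 to 853 CPM in WT. The 4 leukocyte miRNAs summed to 156 to 208 CPM in R821E and 278.5 to 385 CPM in WT, mostly miR-142-3p, with miR-223-3p at 0 in 5 libraries. The 3 erythroid miRNAs, mostly miR-451a, summed to 244 to 380.1 CPM in R821E and 133.5 to 166 CPM in WT. That difference depended on the scale. The log2 fold change of miR-451a in R821E over WT was 1.00 ± 0.267 with TMM (SE, edgeR, adjusted p = 0.00757). With spike-in scaling it was -0.29 ± 0.268 (SE, edgeR, adjusted p = 0.369). In the remaining rescues the sums were 495 to 659 CPM for the mesenchymal, 683 to 989 for the endothelial, 274 to 480.1 for the leukocyte and 133 to 270.4 for the erythroid miRNAs. Their part in the family's values was not tested.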

How the data were processed

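Per library, the authors deposited a table of raw, unnormalised counts for each miRNA. Tools named in the submitters' processing notes are cutadapt, BWA and bedtools, with no version. The sources used here do not describe the handling of reads that match several miRNAs. RNA was isolated with TRIzol and libraries followed AQ-seq, per the labels' protocols.

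Library sizes and tests left out the 30 spike-in entries. Of the 1346 miRNA entries, edgeR's filterByExpr by group kept 374, which hold 99.6% of the miRNA counts. Their counts went into 1 fit of all 12 libraries (edgeR 4.0.16 in R 4.3.3, robust quasi-likelihood test, 6 residual degrees of freedom), with Benjamini-Hochberg adjustment over all tested entries and a threshold of 0.05. The main scale used TMM factors, and the spike-in scale took summed spike-in counts as library size. SE is the size of the log2 fold change divided by the square root of F. For strand ratios, limma 3.58.1 with a trend and robust variances was fitted to the log2 ratio of 5p to 3p counts, each plus 0.5, over 69 hairpins whose arms both averaged 20 counts or more. Intervals of shares and ratios are exact binomial (Clopper-Pearson, 95%). The scripts were tested on simulated data. With 2 libraries against 2 an exact permutation test cannot go below p = 0.333, so none was used.

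Alternatives were DESeq2 1.42.0, its size factors, total counts, no filter, the 4 libraries compared alone, the replicate number as a block, each library left out, and for strand ratios a pseudocount of 1 and minimum means of 5 and 100 counts. All 7 members and the opposite strands of their hairpins are named whatever their values. The nearest entries are the 3 with the smallest root mean square difference, and other lists are given by counts and by the 4 members highest in CPM, and further members are said to be named after their values were seen. The lists were epithelial miRNAs, miRNAs linked to the epithelial-mesenchymal transition, and markers of mesenchyme, endothelium, leukocytes, erythroid cells, muscle, neurons and hepatocytes. Members and lists were chosen with earlier results of these data known.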

Additional observations from a re-analysis of the deposited data

How the results depend on the processing

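Counts of called members kept within 1.5 times the values given in most alternatives, and the exceptions follow with the counts of all called entries. With total counts as library size, 3 members were called in R821E against WT, and 2 entries in A5 and 3 in ΔPAZ helix against WT. DESeq2 called 19 entries and 0 members in E5, 2 entries in A5 and 3 in ΔPAZ helix against WT. Without the filter, 0 members were called in E5, 3 entries in A5 and 7 in ΔPAZ helix. With only the 4 libraries compared, the degrees of freedom are fewer and the spread is estimated from those libraries alone. No entry was then called on the TMM scale in R821A, E5, A5 or ΔPAZ helix (0 in each), and 0 members in E5. Hairpins with a shifted strand ratio then numbered 25 in R821E and 0 in E5. A minimum mean of 100 counts per arm, which tests 15 hairpins, called 11 in R821E against WT, 9 in R821E against R821A, 4 in R821A and 1 each in A5 and ΔPAZ helix, and neither family hairpin is among the 15. A minimum of 5, which tests 112, called 0 in E5, and a pseudocount of 1 called 1 in ΔPAZ helix. Per spike-in count, the family's ratio to WT was 0.254 in R821E, 0.817 in R821A, 0.586 in E5, 0.665 in A5 and 0.685 in ΔPAZ helix. Beyond the causes named by their construction, the cause was not tested. Depth limits the chromosome 12 members most, with 3 to 22 counts per library.

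The labels number replicates 1 and 2 in every group without saying that a number marks a shared culture or day. Deviations of same-numbered libraries correlated from -0.503 (E5 with WT) to 0.378 (R821A with WT) across entries, so the pairing is not established. With the replicate number as a block, 22 entries and 0 members were called in E5, and 0 entries in A5 (TMM scale), beside 36 entries in A5 and 27 entries and 0 members in ΔPAZ helix (spike-in scale). The miR-200a-3p calls had adjusted p = 0.0599 in E5 (TMM scale) and 0.0716 in ΔPAZ helix (spike-in scale) in edgeR, miR-429 had 0.0612 in ΔPAZ helix (spike-in scale), and the miR-200a strand shift had 0.0731 in E5 in limma. The block changed no other call of a member or of its hairpins.

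Leaving out each library in turn gave these ranges of calls. R821E against WT had 3 to 5 members on the TMM scale and 25 to 38 shifted hairpins. R821E against R821A had 80 to 107 entries and 14 to 28 hairpins. R821A against WT had 2 to 16 entries (TMM), 10 to 25 entries (spike-in) and 0 to 1 hairpins. E5 against WT had 6 to 28 entries and 0 members (TMM), 63 to 119 entries and 1 to 3 members (spike-in) and 0 to 5 hairpins. A5 had 0 to 8 entries (TMM), 1 to 49 entries and 0 to 1 members (spike-in) and 0 to 1 hairpins. ΔPAZ helix had 0 to 6 entries (TMM), 1 to 45 entries and 0 to 1 members (spike-in) and 0 to 1 hairpins. E5 against A5 had 0 to 1 entries on either scale.

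Signs turned for values that had not passed a test. Leaving out single libraries moved the log2 fold change in R821E over WT on the spike-in scale from -0.22 to 0.40 for miR-200a-5p and from -0.40 to 0.15 for miR-200b-5p, and for miR-200b-5p from -0.65 to 0.12 over R821A. In R821A over WT the ranges were -0.39 to 0.37 for miR-200a-5p, -0.29 to 0.25 for miR-200c-3p and -0.27 to 0.23 for miR-429 (TMM), -0.23 to 0.53 for miR-200b-5p, -0.24 to 0.065 for miR-200b-3p and -0.72 to 0.028 for miR-200c-3p (spike-in), and -0.0799 to 0.69 and -0.0795 to 0.54 for the strand shifts of miR-200a and miR-200b. In E5 they were -0.21 to 0.72 for miR-200b-5p and -0.070 to 0.53 for miR-200c-3p (TMM), -0.82 to 0.16 for miR-200b-5p (spike-in) and -0.38 to 0.71 for the miR-200b strand shift. In A5 they were -0.12 to 0.094 for miR-200b-3p (TMM), -0.41 to 0.49 for miR-200a-5p and -0.11 to 0.28 for miR-200c-3p (spike-in). In ΔPAZ helix they were -0.10 to 0.046 for miR-200b-3p and -0.75 to 0.060 for miR-200c-3p (TMM) and -0.28 to 0.75 for miR-200a-5p (spike-in). In E5 over A5 they were -0.048 to 0.79 for miR-200a-5p, -0.87 to 0.06 for miR-200b-5p and -0.58 to 0.025 for miR-200c-3p (TMM), -0.21 to 0.69 for miR-200a-5p and -0.11 to 0.016 for miR-200b-3p (spike-in), and -1.09 to 0.0094 for the miR-200b strand shift. Other scalings and tools turned miR-200c-3p and miR-429 in R821A (0.0196 and 0.00737 with DESeq2, 0.0070 and 0.00657 with its size factors), and miR-200b-3p in A5 (-0.062 with total counts, -0.027 without the filter, -0.00641 with the 4 libraries) and in ΔPAZ helix (-0.10 with total counts).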
